A study of Mus musculus with 2 samples.

Results

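Transcription in response to canonical WNT signaling is decided in the nucleus by a small family of DNA-binding proteins and by the cofactors they carry. Without a WNT signal, TCF/LEF factors occupy their target genes together with Groucho corepressors, which are encoded by the Tle genes. When the kinase GSK3 is blocked or a WNT ligand is bound, β-catenin accumulates, enters the nucleus, binds the TCF/LEF factors and brings in coactivators, among them BCL9 and the PYGO proteins. TCF7 and LEF1 are known mainly as activators that are themselves often targets of the pathway, TCF7L1 is known mainly as a repressor, and TCF7L2 can act as either.

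The genes described here are 10 members of this machinery. They comprise the 4 TCF/LEF factors Tcf7, Lef1, Tcf7l1 and Tcf7l2, the 4 Groucho corepressors Tle1, Tle2, Tle3 and Tle4, and the β-catenin coactivators Bcl9 and Pygo2. They were chosen by name, as biological probes whose gene name in the scanner tables is one of these symbols. This gave 20 of 39429 probes and 10 of 29864 genes. All 20 probes were well above background in each channel of both arrays, so that all 10 genes were among the 21574 genes tested.

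The RNA came from E12.5 ureters of NMRI wildtype mice, explanted and kept in culture for 18 h. The BIO group received 10 µM BIO (6-bromoindirubin-3'-oxime), an inhibitor of GSK3, and the control group received the solvent DMSO alone, at 2 parts to 1000 of medium, and per the methods the medium held no serum. Control and BIO RNA were hybridized together on each of 2 arrays, with the dyes exchanged in replicate 2, and the methods describe pooled ureters, so that a sample is not 1 embryo. The explant holds epithelium, mesenchyme and vessels together, and in such bulk RNA fewer cells of a type and less RNA per cell cannot be told apart.

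The probes are 60 bases long, and where on the transcript they lie decides what their signal can show. The probes printed next are those that reach coding sequence in Lef1, Tle4, Tle2 and Tcf7l2. They are shown because the first 3 of these genes were called and because the pair for Tcf7l2 reads separate parts of its coding sequence. Capitals mark the stop codon where the probe crosses the end of the reading frame. Coordinates are those of the scanner tables, in mm9.
Lef1, probe A_51_P420400, chr3:130907851-130926012, plus strand: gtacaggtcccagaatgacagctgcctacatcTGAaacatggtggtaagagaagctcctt
Tle4, probe A_55_P2328920, chr19:14524206-14524265, minus strand: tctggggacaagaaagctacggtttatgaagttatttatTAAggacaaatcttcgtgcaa
Tle2, probe A_55_P2083629, chr10:81052979-81053038, plus strand: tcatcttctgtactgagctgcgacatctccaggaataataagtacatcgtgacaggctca
Tcf7l2, probe A_55_P2143724, chr19:55817272-55817331, plus strand: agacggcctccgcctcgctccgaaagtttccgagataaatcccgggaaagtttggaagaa
Tcf7l2, probe A_55_P2030160, chr19:55994029-55994088, plus strand: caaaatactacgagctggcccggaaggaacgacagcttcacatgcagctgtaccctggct
The Lef1 probe matches over 18162 bases of genome and so joins exons, with the stop codon at its bases 33 to 35. The Tle4 probe holds the stop codon at bases 40 to 42. For Tcf7l2, the first probe starts at position 727 of its transcript, in the 5' part of the coding sequence, and the other at position 1724, in the part that encodes the DNA-binding HMG box.

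With BIO, 3 of the 10 genes rose and 1 fell. The risen genes were Tcf7, Lef1 and Tle4, and the fallen gene was Tle2. A call means an adjusted p under 0.05 by limma, with Benjamini-Hochberg adjustment over all 28824 probes tested. Among all genes tested, 23.9% were called, 9.13% as risen and 14.8% as fallen. The median log2 ratio of BIO over control was 0.02 over the 10 genes and -0.01 over all genes tested. By the mean of both arrays the set was therefore centered close to all genes, while its single members ranged from a log2 ratio of -0.38 to 1.38. On replicates 1 and 2 alone, the medians of the 10 genes were 0.17 and 0.07. Those of all genes tested were -0.03 and 0.002. Of the 20 probes, 6 rose and 1 fell, against 8.95% and 14.3% of all probes tested, of which 23.2% were called in either direction. The 4 called genes had the same direction on both arrays. With 2 arrays a call all but requires this, and 27.1% of all genes tested had opposite signs.

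**Figure D1:**
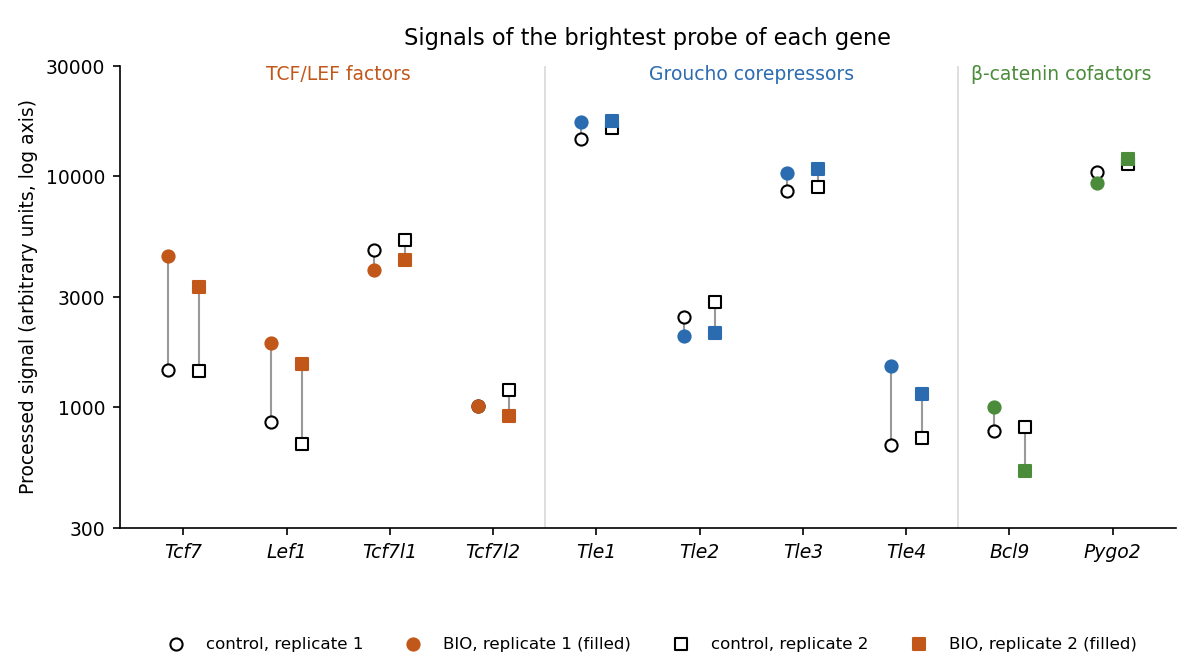
Processed signal of the brightest probe of each gene in arbitrary units on a log axis, with control channels as open symbols and BIO channels as filled symbols, circles for replicate 1 and squares for replicate 2, and a line joining the channels of 1 array. For Tcf7, Lef1 and Tle4 both BIO signals lie well above both control signals, and for Bcl9 the BIO signal is above control in replicate 1 and below it in replicate 2; levels of different genes come from different probes and are not comparable.

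The strongest change among the TCF/LEF factors was that of Tcf7, which encodes TCF1. Its brighter probe, at chr11:52066114-52066173 in mm9, had processed signals of 1443 with control and 4498 with BIO in replicate 1, and of 1428 with control and 3328 with BIO in replicate 2. The control signals of the 2 arrays were nearly equal, and both BIO signals lay above them. The arrays gave log2 ratios of 1.58 and 1.17, with a mean of 1.38 ± 0.13 (SE, n = 2 arrays), a 2.60-fold increase with an adjusted p of 0.000278 by limma. By size of the ratio this was rank 56 from the top among the 21574 genes tested. The second probe of Tcf7 lies 624 bases closer to the 5' end of the same transcript. There the control signals were 535 and 456 and the BIO signals 1295 and 825 in replicates 1 and 2, and the log2 ratio was 0.98 ± 0.13 (SE, n = 2 arrays, limma adjusted p = 0.00133). At both probes the increase was the smaller one in replicate 2, by 0.41 and 0.42 on the log2 scale.

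Lef1, which encodes a close relative of TCF1, rose as well. At its brighter probe, chr3:130926200-130926259 in mm9, the control signals were 859 in replicate 1 and 696 in replicate 2, and the BIO signals were 1903 and 1536. The channels did not overlap, and the log2 ratios of 1.05 and 1.10 were nearly the same on both arrays. They gave 1.07 ± 0.11 (SE, n = 2 arrays), a 2.11-fold increase with a limma adjusted p of 0.000357. The printed Lef1 probe, which ends 247 bases before that one on the transcript, had control signals of 354 and 284 and BIO signals of 1038 and 664 in replicates 1 and 2. Its log2 ratio was 1.26 ± 0.12 (SE, n = 2 arrays, limma adjusted p = 0.000253). By its coordinates it crosses an exon junction, so that it reads spliced RNA.

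The other TCF/LEF factors did not show an increase. Tcf7l1, which encodes TCF3, has 1 probe, at chr6:72576377-72576436 in mm9. Its signals were 4789 with control and 3930 with BIO in replicate 1, and 5290 with control and 4341 with BIO in replicate 2. Both BIO signals thus lay below both control signals, but the log2 ratio of -0.31 ± 0.11 (SE, n = 2 arrays) was not called, with a limma adjusted p of 0.0800. Tcf7l2, which encodes TCF4, has 3 probes, and none was called. At the brightest, chr19:56006638-56006697 in mm9, the control signals were 1011 and 1184 and the BIO signals 1010 and 914 in replicates 1 and 2. The log2 ratios of this probe, of the HMG box probe and of the 5' coding probe were -0.22, -0.14 and -0.21, with limma adjusted p values of 0.231, 0.417 and 0.244. The 95% intervals of these probes, from separate regions of the gene, overlapped.

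The 95% intervals of the log2 ratio were 1.08 to 1.67 for Tcf7 and 0.83 to 1.32 for Lef1. Those of Tcf7l1, -0.56 to -0.06, and of Tcf7l2, -0.50 to 0.06, lie wholly below these, while the intervals of Tcf7 and Lef1 overlap each other. An increase of Tcf7l1 or Tcf7l2 as large as that of either risen factor was therefore outside their intervals. The names of 3 genes for E proteins, a separate family of basic helix-loop-helix factors, are easily taken for those of this family. Of these, Tcf12 had a log2 ratio of 0.36 (limma adjusted p = 0.0452), whereas Tcf3 and Tcf4 had -0.02 and -0.25 and were not called. The second probe of Tcf12 had 0.18 and was not called either.

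**Figure D2:**
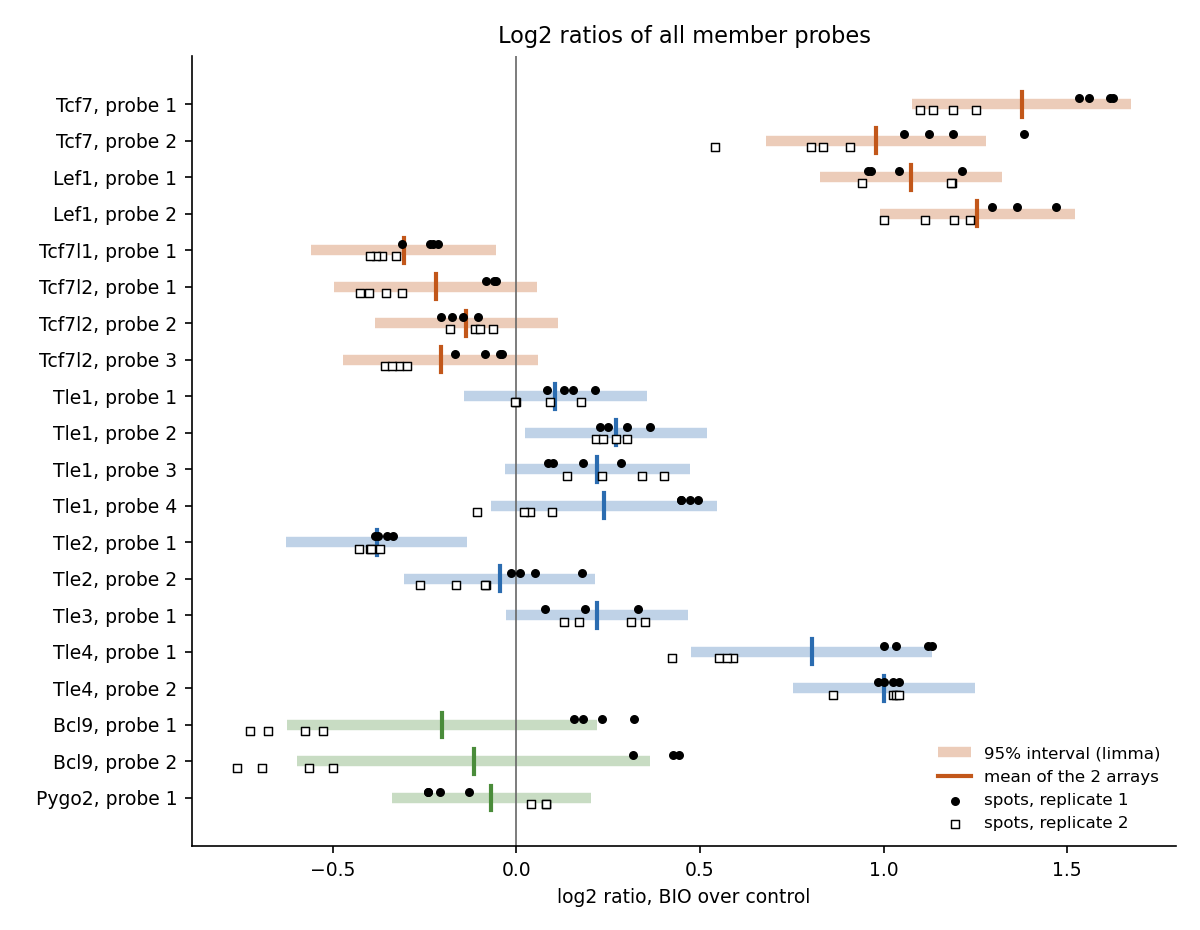
Log2 ratio of BIO over control for the 20 probes of the 10 genes, ordered by gene and then from the brightest probe down, with the kept spots of replicate 1 as filled circles and of replicate 2 as open squares, the mean of the arrays as a bar and its 95% interval from limma as a band. All spots of the Tcf7, Lef1 and Tle4 probes lie above 0, and those of both Bcl9 probes lie above 0 in replicate 1 and below 0 in replicate 2.

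Among the Groucho corepressors, Tle4 rose. The printed probe, which ends the reading frame, had signals of 688 with control and 1505 with BIO in replicate 1, and of 734 with control and 1141 with BIO in replicate 2. The channels did not overlap, although the increase in replicate 2 was the smaller one. The log2 ratios were 1.07 and 0.53, and their mean was 0.80 ± 0.14 (SE, n = 2 arrays, limma adjusted p = 0.00535). The second Tle4 probe lies 1644 bases nearer the 3' end of the transcript, at chr19:14522562-14522621 in mm9. Its signals were 386 and 850 in replicate 1 and 431 and 929 in replicate 2, for control and BIO in turn. Here the arrays were almost alike, with log2 ratios of 1.01 and 0.99 and a mean of 1.00 ± 0.11 (SE, n = 2 arrays, limma adjusted p = 0.000484). The smaller value of the printed probe in replicate 2 was therefore not seen at the dimmer one. With the processed signals of the scanner software in place of the corrected intensities, the printed probe had a log2 ratio of 0.88 and missed the threshold, with an adjusted p of 0.0668, as it did in the deposited score table with 0.91 and 0.229. Over the 7 other ways of processing that allow a test of this probe alone, its adjusted p ran from 0.00255 to 0.229.

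Tle2 was the 1 member called as fallen, and by little. Its printed probe lies in the coding sequence of the C-terminal WD repeats, through which Groucho proteins bind some of their partners. The signals were 2461 with control and 2037 with BIO in replicate 1, and 2861 with control and 2097 with BIO in replicate 2, so that both BIO signals lay below both control signals. The log2 ratio was -0.38 ± 0.11 (SE, n = 2 arrays, limma adjusted p = 0.0369). The other Tle2 probe starts 180 bases further 3' on the same transcript, and its arrays gave log2 ratios of 0.06 and -0.15, a mean of -0.05 and an adjusted p of 0.817. The call thus rests on 1 of 2 probes that are close neighbors, and it was lost under 5 of 8 other ways of processing, with adjusted p values from 0.0585 to 0.229. Among the 8, Aquantile leaves the log2 ratios unchanged and could not alter the call.

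Tle1 and Tle3 were not called. The brightest probe of Tle1, at chr4:71779250-71779309 in mm9, had signals of 14461 and 17131 in replicate 1 and of 16110 and 17403 in replicate 2, for control and BIO in turn. The 4 probes of Tle1 had mean log2 ratios of 0.11, 0.27, 0.22 and 0.24 from the brightest down, all above 0, with limma adjusted p values of 0.540, 0.109, 0.189 and 0.242. Tle3 has 1 probe, at chr9:61266180-61266239 in mm9, whose signals were 8620 and 10303 in replicate 1 and 8954 and 10693 in replicate 2. Its log2 ratio of 0.22, with a 95% interval of -0.03 to 0.47, was not called (limma adjusted p = 0.185). The interval of Tle4, 0.47 to 1.13, began where that of Tle3 ended and lay above that of Tle1, -0.14 to 0.36, and that of Tle2, -0.63 to -0.13. The differences between Tle genes were not tested beyond these intervals.

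The coactivator genes showed no call. BCL9 is the adaptor that joins β-catenin to PYGO proteins. At the brighter Bcl9 probe, chr3:97008238-97008297 in mm9, the signals were 789 with control and 999 with BIO in replicate 1, and 819 with control and 532 with BIO in replicate 2. The 2 arrays therefore disagreed in direction, with log2 ratios of 0.22 and -0.63. The second probe, 348 bases away on the transcript, did the same, with 0.40 and -0.63. Within an array the spots of both probes were close, with an SD between 0.0687 and 0.120 on the log2 scale, so that the disagreement lay between arrays and not between spots. Of all genes tested, 27.1% had opposite signs on the arrays, and 0.941% had opposite signs with arrays at least as far apart as those of Bcl9. Since replicate and dye were exchanged together, they cannot be told apart here, and the mean of -0.20, with a 95% interval of -0.62 to 0.22 and a limma adjusted p of 0.483, gives no direction. For Pygo2, a reader of histone marks, the signals at chr3:89238991-89239050 in mm9 were 10430 and 9331 in replicate 1 and 11282 and 11823 in replicate 2, for control and BIO in turn. Its log2 ratio was -0.07 (limma adjusted p = 0.729), again with opposite signs on the arrays.

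**Figure D3:**
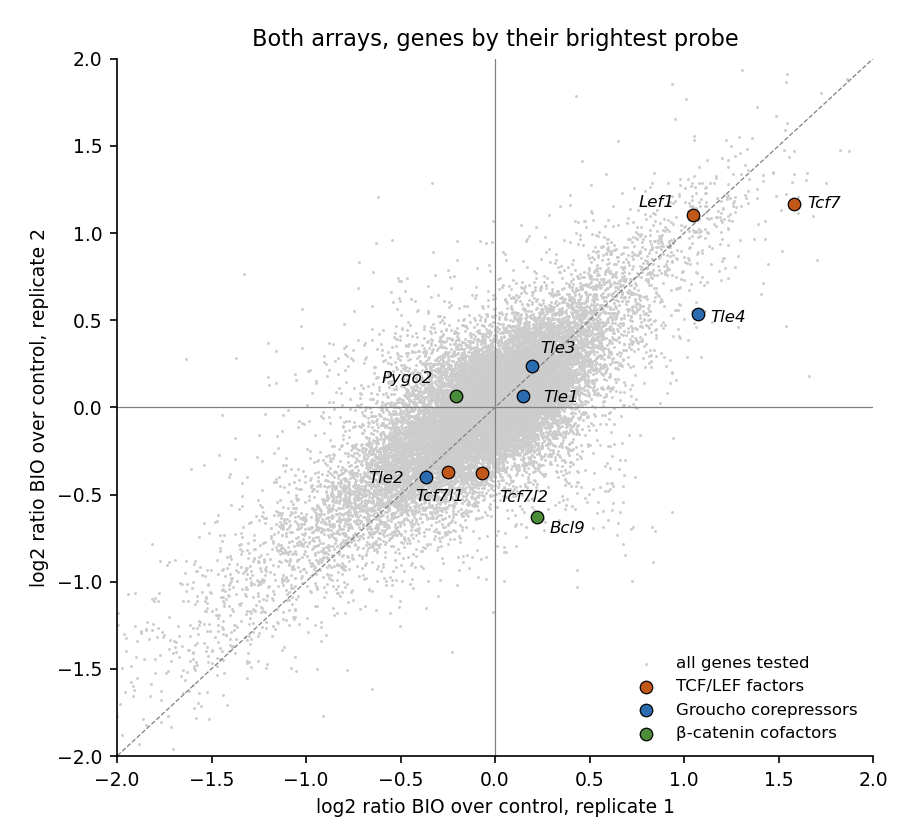
Log2 ratio of BIO over control in replicate 1 against replicate 2 for the genes tested, each by its brightest probe, within limits of -2 and 2 that leave out 156 genes; the dashed line marks equal ratios and the 10 genes are colored by family. Lef1 lies close to the line of equal ratios, Tcf7 and Tle4 lie below it on the side of larger ratios in replicate 1, and Bcl9 lies in the lower right quadrant.

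Counting channels rather than tests, both BIO signals exceeded both control signals for 5 of the 10 genes and fell short of both for 3, while 2 overlapped. Over all genes tested, these shares were 29.9% above and 26.4% below. The genes whose signals overlapped were Bcl9 and Pygo2. The study states cut-offs on intensity and fold change for its other arrays, which were read here as a ratio of at least 2-fold on both arrays with a brighter channel of at least 100. By this rule Tcf7 and Lef1 passed as higher and 0 of the 10 passed as lower. Of all 29864 genes, 0.753% passed as higher and 1.47% as lower. Tle4 missed the rule at its brightest probe in replicate 2, where the ratio of signals was 1.55, and met it at the second probe.

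A further 34 genes for nuclear factors of the pathway were examined beside these, among them β-catenin itself, paralogs of the members, histone modifiers and inhibitors of the β-catenin complex. Of these, 1 rose and 2 fell, against 9.13% risen and 14.8% fallen among all genes tested. The median log2 ratio of the 34 genes was -0.06. Ctnnb1, which encodes β-catenin, had signals of 36455 and 24922 in replicate 1 and of 40443 and 24748 in replicate 2, for control and BIO in turn. The BIO signals lay below the control signals on both arrays, and the log2 ratio was -0.63 ± 0.11 (SE, n = 2 arrays, limma adjusted p = 0.00595). This is a value of the mRNA, and β-catenin protein, which is what GSK3 acts on, was not measured.

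The largest change in that list was in Hic1, a transcriptional repressor that is known to bind TCF7L2. Its signals were 2897 with control and 584 with BIO in replicate 1, and 3192 with control and 961 with BIO in replicate 2. This gave a log2 ratio of -2.01 ± 0.16 (SE, n = 2 arrays, limma adjusted p = 0.000141), and its second probe also fell, with -1.07. Leo1, a subunit of the PAF1 complex that binds β-catenin, was the 1 risen gene, with a log2 ratio of 0.42 ± 0.11 (SE, n = 2 arrays, limma adjusted p = 0.0247). The closest relatives of the members were not called. Bcl9l, the paralog of Bcl9, had -0.05, and Pygo1, the paralog of Pygo2, had 0.22. Tle5, a short member of the Groucho family, and Tle6, a diverged one, had -0.21 and -0.03. The second probe of Tle5 had opposite signs, with 0.04 in replicate 1 and -0.79 in replicate 2. Its mean was -0.38, and it was not called either. Like Bcl9, Bcl9l had opposite signs on the arrays, with log2 ratios of 0.21 in replicate 1 and -0.30 in replicate 2. This is not particular to these paralogs, since 27.1% of all genes tested had opposite signs.

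**Figure D4:**
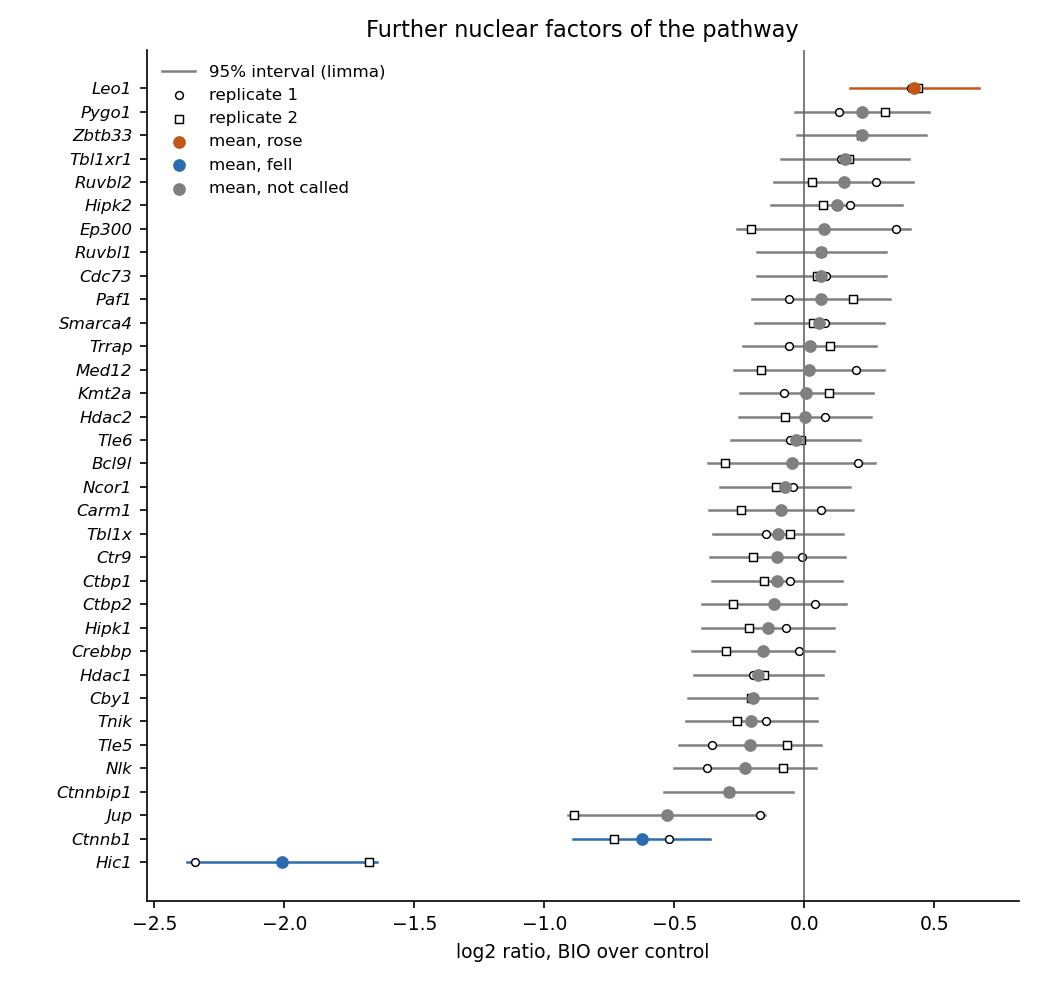
Log2 ratio of BIO over control for the 34 further nuclear genes of the pathway, sorted by size, with open circles for replicate 1, open squares for replicate 2, filled circles for the mean and lines for the 95% interval from limma. Most genes lie close to 0, with Leo1 above it and Ctnnb1 and Hic1 below it as the called genes.

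Known targets of the pathway were read on the same arrays, on which 9.13% of all genes tested rose and 14.8% fell. Of 10 WNT target genes, 9 rose and 1, Dkk1 with a log2 ratio of -0.53, fell, and the median log2 ratio was 1.06. The 2 with the largest ratios were Sp5, a transcription factor gene, with 2.80, and Axin2, the gene of a scaffold protein that limits the pathway, with 2.15. The ratios of Tcf7 and Lef1, 1.38 and 1.07, lay above that median and the ratio of Tle4, 0.80, lay below it. The rise in Tcf7, Lef1 and Tle4 was seen in the same explants as the rise of 9 of these 10 target genes. A link between these rises was not tested.

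Markers of cell types and of the cell cycle moved on the same arrays. Their counts stand beside 9.13% risen and 14.8% fallen among all genes tested. All 8 cell cycle genes rose, led by Aurkb with 1.25 and Top2a with 1.22. The median log2 ratio of the 8 was 1.08, against 1.38 for Tcf7, 1.07 for Lef1 and 0.80 for Tle4. All 8 endothelial markers fell, with a median of -2.01, led by Kdr with -2.63 and Cdh5 with -2.32. Their summed signals were 26003 and 30808 with control and 4455 and 8691 with BIO. Of 12 mesenchymal markers 9 fell and 0 rose, with Pdgfrb at -2.17 and Col3a1 at -0.91. Of 12 epithelial markers 5 fell and 0 rose, with Krt19 at -1.24 and Cdh1 at -1.04. Of 6 nephron progenitor markers 1 rose, Wt1 with 0.58, and 2 fell, Meox1 with -1.53 and Osr1 with -0.94. The part of cell makeup and of cell division in the values of the 10 genes was not tested.

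Tcf7 and Lef1 are also well known from T lymphocytes, so the markers of these cells were read as well. Of 8 such markers, 3, namely Cd3d, Cd3g and Cd8a, were not well above background in any channel. Of the 5 tested, 1 fell, Ptprc with a log2 ratio of -0.78, and 0 rose. Ptprc is not restricted to T lymphocytes, since other leukocytes express it as well. Cd4, Lck, Cd3e and Cd247 were well above background in each channel and were not called. Their control signals in replicates 1 and 2 were 2457 and 1461 for Cd4 and 942 and 1046 for Lck. Those of Cd3e were 108 and 124, and those of Cd247 were 23 and 38. Tested as well were 10 markers of the ureter, of which 1, Tshz3 with a log2 ratio of 0.55, rose and 5 fell. The 2 with the largest ratios were the uroplakin gene Upk3a, with a log2 ratio of -1.98, and the smooth muscle actin gene Acta2, with -1.63. Upk1b was not well above background with BIO on either array. Control signals in replicates 1 and 2 were low for Upk1b, at 62 and 83, for Upk3b, at 24 and 36, and for Upk2, at 10 and 46. The counts of both lists stand beside 9.13% risen and 14.8% fallen among all genes tested.

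The promoters of the 10 genes were searched for the short motif that TCF/LEF factors bind, spelled as CTTTG with an A or a T in each of the 2 places after it, on both strands. The windows ran from 250 bases before to 50 bases after the start of RefSeq transcripts in GRCm38.p6. The 10 genes have 18 such windows, of which 2 held a match, or 11.1%, against 16.9% of all 32851 windows of this length. By gene the count was 2 of 10, against 18.9% of 27025 genes. No window of Tcf7 or Tle4 held one of these letter strings. The matches lay at a start of Lef1 and at one of Tcf7l2 that are downstream of other starts of the same gene, and the 250 bases before each are printed with the match in capitals, on the plus strand of GRCm38.p6.
Lef1, chr3:131156044-131156293: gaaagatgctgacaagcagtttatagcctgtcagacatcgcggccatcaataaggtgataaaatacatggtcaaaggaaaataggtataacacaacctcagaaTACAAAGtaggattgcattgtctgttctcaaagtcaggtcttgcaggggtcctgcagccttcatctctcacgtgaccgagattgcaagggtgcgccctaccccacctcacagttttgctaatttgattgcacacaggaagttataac
Tcf7l2, chr19:55895071-55895320: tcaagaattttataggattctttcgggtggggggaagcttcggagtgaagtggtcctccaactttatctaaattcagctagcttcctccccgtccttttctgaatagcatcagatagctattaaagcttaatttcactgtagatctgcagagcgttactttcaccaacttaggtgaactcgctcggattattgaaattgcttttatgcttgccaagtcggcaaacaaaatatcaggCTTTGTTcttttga
In Lef1 the match is CTTTGTA read on the minus strand, 147 bases before the start, and in Tcf7l2 it is CTTTGTT on the plus strand, 14 bases before it. Lef1 rose and Tcf7l2 was not called, and the arrays do not show which start a transcript came from. A match describes letters only, and binding was not measured.

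**Figure D5:**
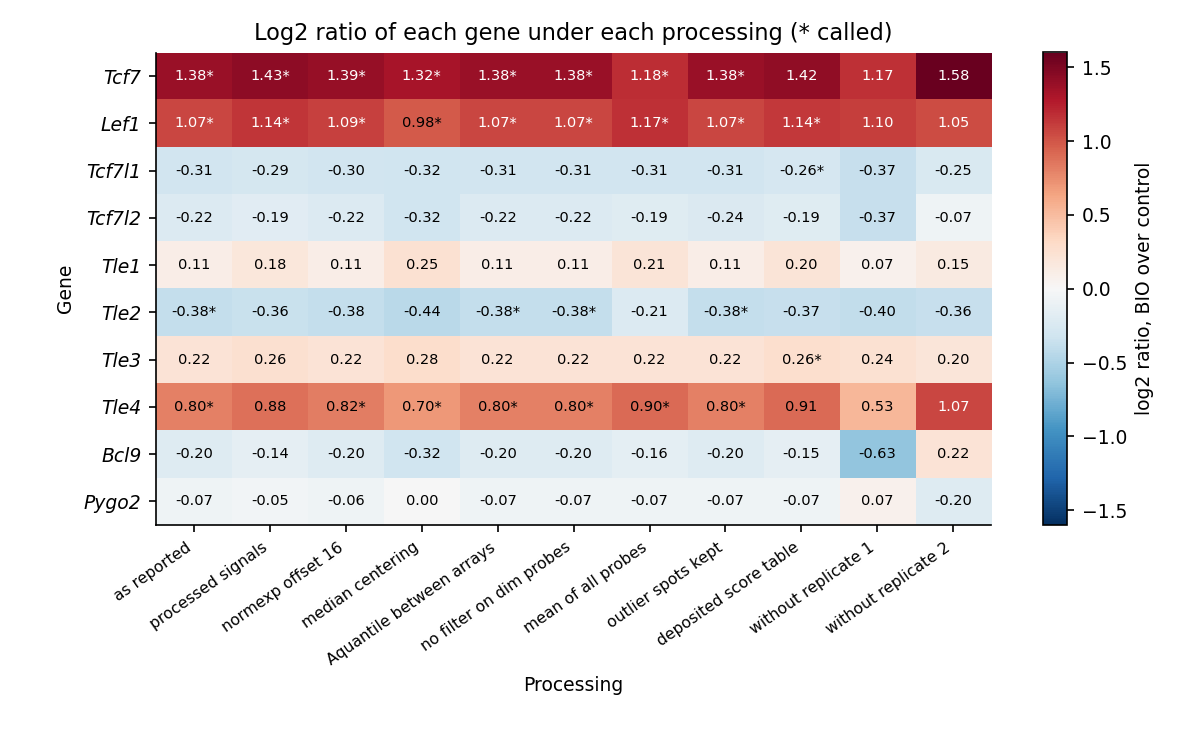
Mean log2 ratio of BIO over control for the 10 genes under the processing as reported and 10 others, with color for the ratio and an asterisk where limma's adjusted p was under 0.05; the columns without a replicate have no test. Tcf7, Lef1 and Tle4 stay above 0 in every column, and the asterisks of Tle2 and Tle4 come and go.

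Across the 10 other ways of processing, the log2 ratio ranged from 1.17 to 1.58 for Tcf7, from 0.98 to 1.17 for Lef1 and from 0.53 to 1.07 for Tle4. Of the 8 ways that allow a test, Lef1 was called in 8, Tcf7 in 7, Tle4 in 6 and Tle2 in 3. Aquantile, which is among these 8, evens average intensities between arrays and leaves the log2 ratios unchanged. It therefore had to repeat the calls as reported and is no separate check. Tcf7 missed the threshold in the deposited score table, with a limma adjusted p of 0.159. Lef1 was called there with the same rounded score of 2.2 on both arrays, which leaves no spread between them.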

How the data were processed

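The authors hybridized RNA of pooled ureters to 2 Agilent 2-color arrays with exchanged dyes, and scanned them with Feature Extraction 10.7.3.1. The deposited scanner tables hold mean and background intensities without normalization, and processed signal intensities that the software background-subtracted and dye-normalized. The authors also deposited 1 score for each probe on each array, given to 1 decimal, which tracks the fold of BIO over control with a minus sign where control is higher. How it was made is not given in the sources used here, and its centering stays unknown. The median score was 1 on both arrays.

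Mean intensities were corrected by normexp (offset 50) and normalized by loess within each array in limma 3.58.1 (R 4.3.3), with control and outlier spots at weight 0. Signals printed as levels are the processed ones, averaged over up to 4 spots. Probes were tested when more than a share of 0.5 of their spots was well above background in the control or the BIO channel of both arrays. The log2 ratios of both arrays, turned to BIO over control, were fitted with lmFit and eBayes and tested two-sided against 0. A gene is represented by its brightest probe. The script was tested on simulated data.

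Each array was taken as 1 replicate. Precision is limited by the number of arrays, and the median SE of a log2 ratio was 0.11. Every SE and interval is moderated by eBayes, with a prior SD of 0.162 and 7.14 prior degrees of freedom. Both arrays lay on 1 slide. Probes were named through RefSeq accessions or symbols, and 7458 of 39429 kept the file's name. The 10 genes and all lists were chosen with earlier results of these data known. The text gives the 10 genes with all probes, in the further list the called genes and the nearest paralogs, and in the target list and each marker list the 2 called genes with the largest ratios. Dkk1, Wt1, Tshz3, Upk1b, Upk2, Upk3b and the T lymphocyte markers other than Ptprc were named after their values were seen. That the intensity limit applies to the brighter channel was chosen here. Alternatives comprised processed signals, an offset of 16, median centering, Aquantile, no filter on dim probes, the mean of all probes, outlier spots kept, the score table and each array alone. For the fold rule, processed signals under 15 were set to 15 and each array was median centered, and minimum folds of 1.5 and 3 and a minimum signal of 50 were tried.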

Additional observations from a re-analysis of the deposited data

How the results depend on the processing

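The test as reported is already paired, since control and BIO RNA of a replicate share an array and its log2 ratio is their difference. No replicate block can be added to it. Slide as a block was not run, since both arrays lay on 1 slide. The 3 risen members became 2 with processed signals, Tcf7 and Lef1, and 2 with the score table, Lef1 and Tle3. The count of fallen members, 1, became 0 with processed signals, with an offset of 16, with median centering and with the mean of all probes, and the fallen probes became 0 in the first 3 of these. In the score table the fallen member was Tcf7l1, and 3 member probes rose. There the score is rounded to 1 decimal, and the adjusted p of Tcf7 was 0.159 at a log2 ratio of 1.42. The members called there had equal rounded scores on both arrays, which leaves no spread between arrays. These scores were 2.2 for Lef1, 1.2 for Tle3 and -1.2 for Tcf7l1, while Tcf7 had 3.1 and 2.3. Further nuclear genes risen were 0 with processed signals or median centering and 4 in the score table, and those fallen were 1 with processed signals. With a minimum of 3-fold, 0 members passed the fold rule, and without 1 replicate 2 or 3 did. The 2 arrays alone gave Tcf7 log2 ratios of 1.17 and 1.58, and Bcl9 and Pygo2 changed sign between them. Beyond the equal scores given here, the cause of these changes was not tested. Over all genes, the calls were 1970 risen and 3184 fallen, against 797 and 1126 with processed signals, 827 and 1939 after median centering, and 1929 and 1319 in the score table, while the median log2 ratio of all genes stayed between -0.04 and 0.03. With 2 arrays, the smallest log2 ratio called in any gene by the processing as reported was 0.35 in size, while in the rounded score table Tle3 was called at 0.26.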
